A study of Mus musculus with 564 samples.

Results

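Histone H3 lysine 27 acetylation (H3K27ac) was followed at the cis-regulatory elements (CREs) around 9 mouse genes that sense bacterial and viral products: the Toll-like receptor genes Tlr1, Tlr2, Tlr3, Tlr4, Tlr5, Tlr6 and Tlr9, the LPS co-receptor gene Cd14, and Ly96, which encodes MD-2. A CRE was a member where its centre lay within 25 kb of an mm10 RefSeq transcription start of one of these genes, which held for 50 of 59190 CREs. Bone marrow-derived macrophages (BMDM) of wild type C57/BL6 mice received DMSO or 1 of 58 clinical kinase inhibitors (CKIs) for 1 h and then LPS or IL4 at 10 ng/mL for 30 min, 1 h, 2 h or 4 h. Unstimulated (UT) cells had the same pre-treatment; their titles give 0 h and their treatment label gives 4 h. DMSO had 2 libraries in each of its 9 groups, while 474 CKI groups had 1 library and 36 had 2. The compounds were used at different doses, so no value compares compounds at a matched dose.

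Toll-like receptors are membrane proteins that bind conserved microbial molecules and signal through adaptor proteins to NF-kB, MAP kinases and interferon regulatory factors. In macrophages, TLR4 recognises LPS together with MD-2 after CD14 has handed the LPS over, TLR2 pairs with TLR1 or TLR6 to recognise bacterial lipoproteins, and TLR5 recognises flagellin. TLR3 and TLR9 lie in endosomes and recognise double-stranded RNA and unmethylated CpG DNA. H3K27ac marks active promoters and enhancers.

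The deposited values were read counts at open chromatin sites, scaled between libraries and rounded by the authors. The 564 libraries had summed values of 4066894 to 12391409. One read was worth a whole step of the low values, which put the stimulated DMSO libraries at about 2345581 to 5406531 reads in CREs and 535 of 546 CKI libraries at 172602 to 6581857. No depth could be estimated for the 2 DMSO UT libraries, so it cannot be set beside that of the stimulated ones. Both DMSO libraries of a group correlated at r of 0.960 to 0.982 across CREs. Of 8 macrophage marker genes, 5 had a CRE within 1 kb of a start, with mean UT values of 226 to 2082. No such CRE was found for 4 T cell and 4 B cell markers, and 1 of 4 epithelial and stromal markers had one, at 3.5. Among 4 neutrophil markers, 2 had a CRE with mean UT values of 4.50 and 12.5, and that of Camp, a granule peptide gene, rose by 3.97 on the log2 scale at 4 h of LPS; its part in the results was not tested.

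The DNA at 5 sites is shown because these sites carried large LPS gains at Tlr1 and Tlr2, the IL-4 gain at Tlr4, the deepest loss at Tlr5 and the alternating signal at Tlr9. The sequences are RefSeq GRCm38.p6, plus strand, and are the 300 bases around a CRE's centre, or, for Tlr9, the 250 bases before the RefSeq start. They lie at chr5:64909235-64909534 and chr3:83865317-83865616 (both intergenic), chr4:66852055-66852354 (intergenic), chr1:182953737-182954036 (upstream of Tlr5) and chr9:106222348-106222597 (upstream of Tlr9). Capitals mark matches, on either strand, to one of 7 motifs: NF-kB (GGGA, 2 free bases, TTCC), ETS (GAGGAAGT), AP-1 (TGANTCA), ISRE (GAAA, 2 free bases, GAAA), STAT6 (TTC, 4 free bases, GAA), GAS (TTC, 3 free bases, GAA) and the cAMP response element (TGACGTCA).
Tlr1 +23.3 kb: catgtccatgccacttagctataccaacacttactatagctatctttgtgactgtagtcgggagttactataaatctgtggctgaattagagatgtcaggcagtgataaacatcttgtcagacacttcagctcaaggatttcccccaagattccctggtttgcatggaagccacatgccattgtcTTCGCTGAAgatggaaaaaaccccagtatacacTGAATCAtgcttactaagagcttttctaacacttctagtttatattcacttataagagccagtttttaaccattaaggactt
Tlr2 -23.6 kb: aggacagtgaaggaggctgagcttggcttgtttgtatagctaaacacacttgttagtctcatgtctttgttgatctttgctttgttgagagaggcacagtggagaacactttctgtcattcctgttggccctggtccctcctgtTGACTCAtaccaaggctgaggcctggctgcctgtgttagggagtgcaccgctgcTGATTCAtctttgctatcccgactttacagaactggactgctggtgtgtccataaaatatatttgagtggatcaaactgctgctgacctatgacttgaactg
Tlr4 +24.7 kb: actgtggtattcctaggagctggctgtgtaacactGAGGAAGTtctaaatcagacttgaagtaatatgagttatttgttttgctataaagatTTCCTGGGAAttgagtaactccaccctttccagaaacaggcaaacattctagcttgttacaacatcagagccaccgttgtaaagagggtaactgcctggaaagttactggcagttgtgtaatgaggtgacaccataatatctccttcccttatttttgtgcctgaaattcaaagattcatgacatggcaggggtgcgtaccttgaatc
Tlr5 promoter: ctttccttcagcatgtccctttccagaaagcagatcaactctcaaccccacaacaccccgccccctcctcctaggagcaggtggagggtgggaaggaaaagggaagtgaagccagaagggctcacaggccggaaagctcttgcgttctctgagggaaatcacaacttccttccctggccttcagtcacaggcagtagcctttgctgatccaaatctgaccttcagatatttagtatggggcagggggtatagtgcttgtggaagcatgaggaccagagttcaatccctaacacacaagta
Tlr9 RefSeq promoter: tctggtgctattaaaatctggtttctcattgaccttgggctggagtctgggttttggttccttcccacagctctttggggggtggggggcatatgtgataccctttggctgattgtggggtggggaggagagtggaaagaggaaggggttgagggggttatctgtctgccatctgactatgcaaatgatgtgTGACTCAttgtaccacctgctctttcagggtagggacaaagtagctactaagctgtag

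The Tlr1 site held a GAS and an AP-1 match, the Tlr2 site held 2 AP-1 matches, the Tlr4 site held an ETS and a STAT6 match, the Tlr5 site held none, and the Tlr9 promoter held an AP-1 match. No match overlapped another. AP-1 letters were in the centres of 12 of 50 member CREs (24%) and of 20.2% of all 59187 CRE centres of that length, and STAT6 letters were in 7 (14.0%) against 9.21%. GAS letters were in 6 (12%) against 9.40%, and ETS letters in 3 (6%) against 9.11%. NF-kB, ISRE and cAMP response element letters were in none of the 50, against 2.22%, 5.13% and 0.848% of all centres. Promoter sequences were found for 6 of the 9 genes, in 8 entries, and not for Tlr4, Cd14 and Ly96; among them 1 entry each held ETS and GAS letters (both Tlr1), ISRE letters (Tlr6), NF-kB letters (Tlr3) and AP-1 letters (Tlr9), against 2.44%, 7.02%, 2.98%, 1.21% and 6.75% of 32841 promoters. A match describes letters in a window only.

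Before stimulation the CREs at the genes' starts differed in acetylation per length. For Tlr2 this was Tlr2 -1.6 kb, which spans its starts but has its centre farther than 1 kb from them, for Tlr6 it was Tlr6 -0.4 kb at its proximal start, and for the others it was the promoter CRE. Per kb, the 2 UT libraries had 288 and 301 at Ly96, 286 and 282 at Tlr4, 211 and 227 at Tlr6, 213 and 203 at Cd14, 185 and 175 at Tlr9, 132 and 132 at Tlr5, 126 and 113 at Tlr2, 83.2 and 81.8 at Tlr1, and 77.6 and 86.0 at Tlr3. The neighbours Tlr6 and Cd14 overlapped in this order, as did Tlr1 and Tlr3; the other neighbours did not overlap, but the gaps between Ly96 and Tlr4 and between Tlr5 and Tlr2 were smaller than the spread of their libraries. CREs are named by the distance of their centre from the nearest start of the gene, positive downstream, and the promoter CRE of a gene is the one centred nearest to a start and within 1 kb of it. At Tlr6 that was a second CRE, at the distal start, with 203 and 202 over 1711 bases; it is not in the order above.

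LPS changed acetylation past the thresholds given below at CREs of every gene of the set except Tlr6. In the DMSO time course, 32 of 50 member CREs were called, 20 higher and 12 lower. A call needed an adjusted p under 0.01 in limma's F-test over the 4 times together with a change from UT by more than 1 log2 unit at one of them. Of all 50697 CREs tested, 53.5% were called, 29% higher and 24.6% lower, so the member counts were near the background. All called CREs around Tlr1 (2 of 4), Tlr2 (7 of 8), Cd14 (7 of 9) and Ly96 (2 of 4) rose, and all called CREs around Tlr4 (2 of 4) and Tlr5 (4 of 6) fell. Around Tlr9, 5 of 10 fell and 1 rose, around Tlr3 1 of 2 rose and 1 fell, and none of 3 around Tlr6 was called. The largest gain was at 30 min for 12 of the 20 higher CREs, at 1 h for 2 and at 2 h for 6. In bulk chromatin, a change in every cell and a change in the share of cells that carry the mark cannot be told apart.

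IL-4 called 11 of 50 member CREs, 2 higher and 9 lower, where 24.7% of 47018 CREs tested were called, 13.6% higher and 11% lower. Both gains were at Tlr4. The losses were at Tlr2 (3 of 8), Tlr5 (3 of 6) and Cd14 (3 of 9), and no CRE around Tlr1, Tlr3, Tlr6, Tlr9 or Ly96 was called. Of the 9 losses, 7 were largest at 4 h and 2 at 2 h, and both gains were largest at 30 min. The median log2 difference over the members was -0.17, -0.25, -0.38 and -0.22 at the 4 times, and 0.09, 0.03, -0.03 and 0.05 over all CREs tested. LPS was also tested directly against IL-4 at matched times. These contrasts leave out the UT libraries, which entered only the filter and the variance of the fit. In this test 36 of 50 were called, 24 higher after LPS and 12 lower. Of 50587 CREs tested, 58.4% were called, 29.2% in each direction.

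**Figure D1:**
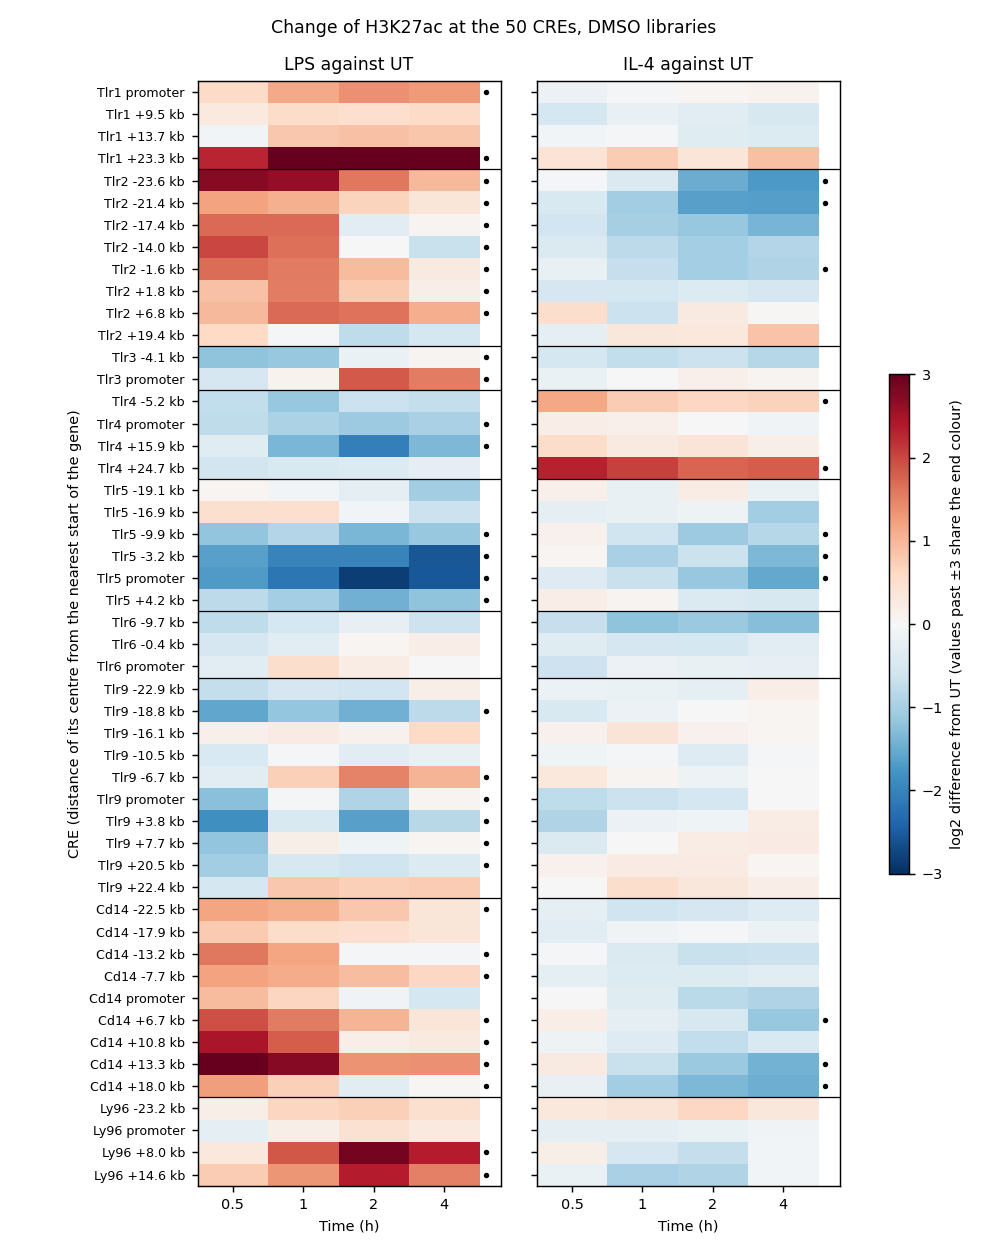
Log2 difference from UT of the 50 member CREs, ordered by gene and position, at 30 min, 1 h, 2 h and 4 h of LPS or IL-4 in DMSO-treated BMDM (columns). Colours give log2 units, with values past ±3 at the end colour, and black dots mark called CREs (32 after LPS and 11 after IL-4). LPS gains lie around Tlr1, Tlr2, Cd14 and Ly96 and losses around Tlr4, Tlr5 and Tlr9, while the 2 called IL-4 gains lie around Tlr4.

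Tlr2 encodes the common subunit of the lipoprotein receptors, and its locus gained acetylation early. The CRE over its starts (Tlr2 -1.6 kb, chr3:83840540-83846274, overlapping coding sequence) had 720 and 647 in the UT libraries, and 2189 and 2205 at 30 min, 2025 and 2022 at 1 h, 1277 and 1355 at 2 h and 886 and 764 at 4 h of LPS. After IL-4 it had 554 and 623, 412 and 428, 328 and 338, and 349 and 374 at the same times. Every LPS library was above the UT libraries and every IL-4 library below them. The LPS gain at 30 min was 1.68 ± 0.09 (log2 ± SE, adjusted p 2.51e-19) and the IL-4 loss at 2 h -1.02 ± 0.10 (adjusted p 3.77e-13). Without UT replicate 1 the loss was -0.95 and was not called.

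The intergenic Tlr2 -23.6 kb CRE (chr3:83864626-83866306), whose centre holds the 2 AP-1 matches shown above, had 52 and 49 in UT. It had 350 and 375, 326 and 354, 183 and 142, and 116 and 92 over the 4 LPS times, and 52 and 47, 33 and 40, 13 and 17, and 8 and 17 over the IL-4 times. All LPS libraries were above UT, and the IL-4 libraries were below UT from 1 h on. It rose by 2.73 ± 0.18 at 30 min of LPS (adjusted p 4.56e-16), and the IL-4 difference at 4 h was -1.71 ± 0.30 (adjusted p 5.67e-07). The stimuli differed by 3.06 ± 0.24 at 2 h (adjusted p 1.36e-22). The other called Tlr2 CREs rose after LPS by 1.20 (Tlr2 -21.4 kb), 1.70 (Tlr2 -17.4 kb), 2.00 (Tlr2 -14.0 kb), 1.53 (Tlr2 +1.8 kb) and 1.69 (Tlr2 +6.8 kb). Tlr2 +6.8 kb was weak, with 12 and 12 in UT and 55 and 45 at 1 h of LPS, so its fold depends on the added 5. Tlr2 -21.4 kb also lost acetylation after IL-4 (-1.65 ± 0.18, adjusted p 4.57e-12). RefSeq repeat masking covered 56.3% of Tlr2 -23.6 kb, against a median of 18.9% over all CREs; its effect on the counts was not tested.

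Tlr1 and Tlr6 are adjacent genes for the partner subunits of TLR2. LPS called CREs around Tlr1 and none around Tlr6. The Tlr1 promoter (chr5:64931665-64934440, overlapping an exon) had 231 and 227 in UT, then 350 and 337, 541 and 480, 593 and 615, and 567 and 566 after LPS, all above UT. It rose by 1.38 ± 0.12 at 2 h (adjusted p 1.37e-12), whereas its IL-4 libraries, at 181 to 259, overlapped UT (largest difference -0.17, adjusted p 0.354). The intergenic Tlr1 +23.3 kb CRE (chr5:64908485-64910283) was close to unmarked, with 9 and 4 in UT, and had 51 and 49, 139 and 130, 270 and 255, and 181 and 163 after LPS. Its IL-4 libraries had 9 to 18, and met the UT range at 9. The LPS gain at 2 h was 4.57 ± 0.23 (adjusted p 1.96e-18), a size that depends on the added 5 at so low a start: it was 5.22 with 1 and 3.42 with 20. Against IL-4 the difference at 2 h was 4.21 ± 0.28 (adjusted p 7.29e-21).

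The Tlr6 CRE near its proximal start (Tlr6 -0.4 kb, chr5:64958384-64962502) had 870 and 936 in UT, and 650 and 615, 781 and 673, 942 and 952, and 1120 and 948 after LPS. The libraries were below UT at 30 min and 1 h and above it at 2 h and 4 h. The largest LPS difference, -0.51 ± 0.10 at 30 min (adjusted p 4.70e-07), stayed under the fold threshold, as did the IL-4 difference of -0.52 at 2 h (adjusted p 2.48e-06). The promoter at the distal Tlr6 start, shared with Fam114a1, had 203 and 202 in UT and 281 and 303 at 1 h of LPS, a difference of 0.52. Tlr6 -9.7 kb, a weak CRE with 35 and 27 in UT, had an IL-4 difference of -1.28 that missed the p threshold (adjusted p 0.0104).

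Tlr4, the signalling receptor for LPS, lost acetylation at its promoter after LPS (chr4:66826683-66829710, overlapping coding sequence). The UT libraries had 867 and 853, and the LPS libraries 475 and 541, 472 and 409, 390 and 415, and 421 and 444. No LPS library reached the UT range, and the IL-4 libraries, at 742 to 1064, spanned it. The loss at 2 h was -1.09 ± 0.12 (adjusted p 7.49e-10), and the largest IL-4 difference was 0.20 (adjusted p 0.0142). Tlr4 +15.9 kb, over an exon of Tlr4, went from 158 and 166 in UT to 132 and 117, 67 and 52, 33 and 38, and 59 and 63 after LPS (-2.05 ± 0.22 at 2 h, adjusted p 1.01e-09). Its IL-4 libraries, at 172 to 266, were all above UT, with a largest difference of 0.56 that was not called.

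The intergenic Tlr4 +24.7 kb CRE (chr4:66851384-66853024) moved with IL-4. It had 84 and 86 in UT and 441 and 435, 326 and 416, 306 and 290, and 300 and 325 over the IL-4 times, against 41 and 78, 94 and 39, 55 and 72, and 84 and 56 after LPS. The IL-4 libraries were all above UT, while the LPS libraries ran from 39 to 94 and overlapped it. It rose by 2.30 ± 0.12 at 30 min of IL-4 (adjusted p 5.10e-21). After LPS it was not called (largest difference -0.54, adjusted p 0.453), and LPS differed from IL-4 by -2.84 ± 0.24 at 30 min (adjusted p 1.45e-19). Tlr4 -5.2 kb had 61 and 53 in UT and 144 and 125 at 30 min of IL-4, a gain of 1.17 ± 0.19 (adjusted p 3.88e-05). Its LPS libraries, at 21 to 46, lay below UT (-1.15, adjusted p 0.0174, not called), and the stimuli differed by -1.91.

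Ly96, the gene for the LPS-binding MD-2, was called in its intron and not at its promoter. The promoter (chr1:16687533-16689713) had 628 and 657 in UT, 510 and 561 at 30 min, 752 and 704 at 1 h, 924 and 834 at 2 h and 805 and 780 at 4 h of LPS, and its largest difference of 0.45 at 2 h was not called (adjusted p 1.43e-06). The intronic Ly96 +8.0 kb CRE (chr1:16695345-16697600) had 52 and 30 in UT and 56 and 46, 166 and 147, 297 and 345, and 211 and 234 after LPS. From 1 h on every LPS library was above UT, and the IL-4 libraries, at 18 to 59, overlapped it. The gain at 2 h was 2.86 ± 0.21 (adjusted p 4.09e-15), and the difference from IL-4 was 3.58 ± 0.25 (adjusted p 2.65e-19). A second intronic CRE, Ly96 +14.6 kb, rose by 2.36. Repeats covered 61.1% of Ly96 +8.0 kb, the highest share among the members.

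Cd14 encodes the protein that delivers LPS to TLR4 and MD-2. Its promoter (chr18:36725940-36728590, overlapping coding sequence) had 564 and 539 in UT and 1056 and 1066, 882 and 851, 538 and 492, and 389 and 370 after LPS, above UT at 30 min and 1 h and below it at 2 h and 4 h. The largest difference, 0.94 ± 0.10 at 30 min (adjusted p 2.04e-14), was just under the fold threshold. After IL-4 the promoter had 526 and 588, 469 and 395, 324 and 299, and 276 and 307 (-0.91 at 4 h, not called). LPS differed from IL-4 by 1.00 ± 0.11 at 1 h (adjusted p 4.55e-15), a call at the threshold that was lost without LPS 1 h replicate 1 (0.98) or IL-4 1 h replicate 2 (0.93).

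Downstream of Cd14 the gains were larger. The intergenic Cd14 +13.3 kb CRE (chr18:36712745-36714356) had 44 and 44 in UT, 439 and 540, 295 and 344, 118 and 121, and 121 and 122 after LPS, and 46 and 63, 22 and 30, 12 and 25, and 12 and 15 after IL-4. Every LPS library was above UT and every IL-4 library from 1 h on was below it. The LPS gain at 30 min was 3.33 ± 0.17 (adjusted p 6.89e-18), the IL-4 loss at 4 h -1.41 ± 0.31 (adjusted p 1.57e-05), and the difference between the stimuli at 1 h 3.40 ± 0.24 (adjusted p 1.53e-22). Cd14 +10.8 kb rose by 2.45 and Cd14 +6.7 kb by 1.94 after LPS. Cd14 +6.7 kb also had an IL-4 difference of -1.15 at 4 h (adjusted p 1.07e-09), which was -0.95 and not called without UT replicate 1. Cd14 +18 kb (chr18:36707559-36709975), nearest to the start of E230025N22Rik, had 402 and 456 in UT, 1033 and 1033 at 30 min of LPS (1.26) and 180 and 129 at 4 h of IL-4 (-1.46 ± 0.13, adjusted p 7.12e-15). The upstream CREs over Ik and Tmco6 rose by 1.19 (Cd14 -22.5 kb), 1.58 (Cd14 -13.2 kb) and 1.20 (Cd14 -7.7 kb).

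**Figure D2:**
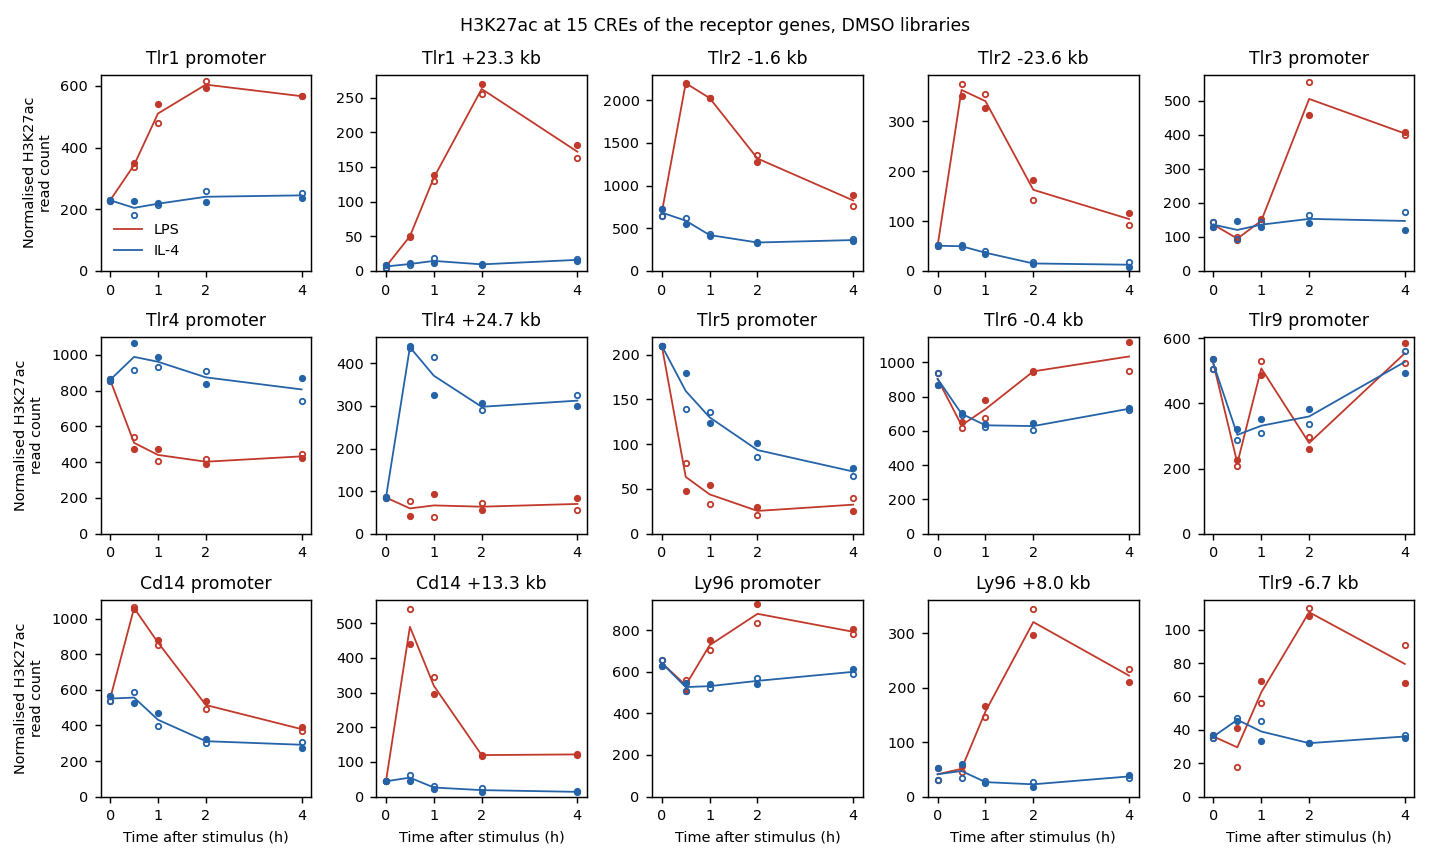
Normalised H3K27ac read count of each DMSO library (filled points replicate 1, open points replicate 2) and group mean (lines) at 15 member CREs against hours of LPS (red) or IL-4 (blue), with UT at 0 h. LPS libraries at Cd14 +13.3 kb reach 439 and 540 at 30 min, IL-4 libraries at Tlr4 +24.7 kb reach 441 and 435, and those of the Tlr9 promoter fall, return and fall again after LPS.

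Tlr5, the flagellin receptor gene, lost acetylation after both stimuli. The Tlr5 promoter (chr1:182953090-182954683, just upstream of the first exon) had 210 and 210 in UT, 48 and 79, 55 and 33, 30 and 21, and 25 and 40 after LPS, and 180 and 139, 124 and 136, 101 and 86, and 74 and 65 after IL-4. All stimulated libraries were below UT, and at each time both LPS libraries were below both IL-4 libraries. The loss was -2.83 ± 0.28 at 2 h of LPS (adjusted p 2.54e-10) and -1.53 ± 0.17 at 4 h of IL-4 (adjusted p 3.42e-10), and the stimuli differed by -1.70 ± 0.25 at 2 h (adjusted p 1.87e-11). Tlr5 -3.2 kb fell by 2.57 after LPS and by 1.35 after IL-4, and the intronic Tlr5 +4.2 kb fell by 1.43 after LPS. Tlr5 -9.9 kb fell by 1.37 ± 0.34 after LPS (adjusted p 0.00432), with an adjusted p of 0.0525 without UT replicate 1 and 0.109 without UT replicate 2. Tlr5 -19.1 kb and Tlr5 -16.9 kb were not called.

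Tlr3, the receptor gene for double-stranded RNA, rose late. Its promoter (chr8:45409528-45411190, over the first exon) had 129 and 143 in UT, 91 and 99 at 30 min, 153 and 142 at 1 h, 457 and 554 at 2 h and 408 and 400 at 4 h of LPS. It was below UT at 30 min, near it at 1 h and above it at 2 h and 4 h, with a gain of 1.85 ± 0.16 at 2 h (adjusted p 3.68e-16). IL-4 libraries, at 94 to 173, overlapped UT (largest difference -0.20, adjusted p 0.402), and the stimuli differed by 1.69 ± 0.18 at 2 h (adjusted p 5.71e-13). Upstream, Tlr3 -4.1 kb went from 92 and 107 to 28 and 57 at 30 min of LPS (-1.20 ± 0.26, adjusted p 1.15e-05). With 20 added before the logarithm this was -0.97 and not called.

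Tlr9, the CpG DNA receptor gene, alternated after LPS. Its promoter (chr9:106221118-106224010, overlapping coding sequence) had 536 and 507 in UT, 226 and 207 at 30 min, 486 and 529 at 1 h, 260 and 297 at 2 h and 584 and 524 at 4 h. The libraries were below UT at 30 min and 2 h and at the UT level at 1 h and 4 h, with log2 differences of -1.25, -0.04, -0.90 and 0.08 (SE 0.13, adjusted p 1.73e-12 over the 4 times). After IL-4 it had 320 and 287, 353 and 310, 384 and 336, and 494 and 561, with a largest difference of -0.77 at 30 min that was not called. Tlr9 +3.8 kb, over coding sequence, had 136 and 141 in UT and 33 and 37, 89 and 110, 37 and 46, and 94 and 61 after LPS, low at the same 2 times (-1.84 ± 0.24 at 30 min, adjusted p 2.97e-08). In the CKI libraries the median at the Tlr9 promoter was 536 in UT, 225.5 at 30 min, 543 at 1 h, 363 at 2 h and 458 at 4 h of LPS, so the 30 min and 2 h values were the low ones in both sets.

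The neighbours of Tlr9 moved in both directions. Tlr9 -18.8 kb, over Twf2, a gene for an actin-binding protein, fell by 1.57 ± 0.18 at 30 min of LPS (adjusted p 4.19e-09), and Tlr9 +20.5 kb, over the haem synthesis gene Alas1, fell by 1.04. Tlr9 +7.7 kb fell by 1.19 at 30 min of LPS, from 384 and 415 in UT to 180 and 165. It had 489 and 419 at 1 h, 361 and 371 at 2 h and 454 and 379 at 4 h. Tlr9 -6.7 kb had 37 and 35 in UT and 41 and 18, 69 and 56, 108 and 113, and 68 and 91 after LPS, and rose by 1.49 ± 0.28 at 2 h (adjusted p 1.25e-06). Among the 38 member CREs nearest to a start of their own gene, LPS called 16 higher and 10 lower and IL-4 2 higher and 8 lower. Among the 12 nearest to another gene's start, LPS called 4 higher and 2 lower, and IL-4 1.

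The edge of the 25 kb window is arbitrary. The farthest members were Tlr4 +24.7 kb and Tlr2 -23.6 kb, whose values are given above. Just outside, a CRE at 25.3 kb from Tlr2 (chr3:83866368-83867964) had 12 to 28 in UT, 74 to 108 at 30 min of LPS and 1 to 7 at 4 h of IL-4. Another at 25.3 kb from Tlr9 (chr9:106247135-106248713) had 212 to 221 in UT, 321 to 336 at 1 h of LPS and 260 to 293 at 1 h of IL-4.

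Among promoter CREs of other genes, the courses most like those of 3 members were ranked by Pearson's r over the 9 DMSO group means. For Tlr2 they were Ankrd33b (r 0.990), Dennd4a (0.984), a Rab exchange factor gene, and Slc44a1 (0.981), a choline transporter gene, of 10090 promoter CREs. For Tlr4 they were Cd300c (r 0.995), an immunoglobulin-like receptor gene, Angptl2 (0.992), a secreted angiopoietin-like protein gene, and Fbxo5 (0.990), a cell cycle regulator gene. For Cd14 they were Prr5l (r 0.983), Plaur (0.977), the urokinase receptor gene, and Map3k20 (0.972), a MAP kinase kinase kinase gene. The 9 means come from the same libraries for all genes, and no test was made.

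Of 31 other genes of the pathway, 26 had a promoter CRE and 25 could be tested. LPS called 7 higher and 6 lower, with 12 not called, where 53.5% of all CREs tested were called, 29% higher and 24.6% lower. IL-4 called 3 higher and 1 lower, with 21 not called, where 24.7% were called, 13.6% higher and 11% lower. The LPS share was thus near that of all CREs. With 25 genes, the lower IL-4 share is not read as a difference, and no share over promoter CREs alone was counted. Among the other receptors and co-receptors, 5 of 6 tested were called after LPS, each with its largest change below UT: Tlr8 (-1.37), an endosomal RNA sensor, Tlr11 (-1.10), which recognises profilin, Tlr13 (-1.38), a sensor of bacterial ribosomal RNA, Ly86 (-1.45), the partner of RP105, and the scavenger receptor gene Cd36 (-1.46). Tlr11 moved both ways: it was higher after LPS than after IL-4 by 1.40 at 2 h (adjusted p 4.82e-05), while its largest IL-4 difference from UT was 0.54, which puts it above UT at 2 h of LPS. Tlr7 had -0.56 and was not called. Of 3 chaperone genes, Cnpy3 fell (-2.10), and Unc93b1, which carries endosomal receptors, and Hsp90b1 had -0.93 and -0.55 without a call.

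Some adaptor and kinase genes rose after LPS, and with so few genes their counts are read only against the 29% of all CREs called higher. Of 4 adaptor genes, Myd88 (1.19) and Ticam1 (1.56), which encodes TRIF, rose. Of 8 kinase and ligase genes, Irak2 (1.24), Irak3 (1.07), which encodes a negative regulator, and Tbk1 (1.35), the kinase upstream of IRF3, rose, and 5 were not called. Of 4 inhibitor genes tested, Tnfaip3, the gene for A20, rose after LPS (2.25) and IL-4 (1.15), as did Socs1, a JAK inhibitor gene (2.45 and 2.25). At 30 min Socs1 was lower after LPS than after IL-4 (-2.57).

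The CKI libraries gave 58 further courses that share no library with DMSO. Averaged over CKIs, LPS called 20 of 50 member CREs, 9 higher and 11 lower (background 28.9% of 59163 CREs, 15.4% higher and 13.5% lower), and IL-4 called 5, 1 higher and 4 lower (background 8.84% of 59150, 5.33% and 3.5%). All 32 CREs called after LPS with DMSO had the same sign in the CKI average, against 98% of CREs called with DMSO over the genome, and the median ratio of the CKI to the DMSO difference was 0.638 against 0.625. After IL-4 it was 11 of 11, against 97.7%, with a median ratio of 0.706 against 0.609. These shares were near those of all CREs. The contrast of a library, here the median of the strongest CREs over that of the weakest, was 53.0 to 134 with DMSO and 3.34 to 67.2 with CKIs, and its part in the smaller CKI differences was not tested.

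Some responses had the same direction in every compound. The mean over stimulated times was above the compound's own UT value in 58 of 58 CKIs after LPS at Tlr2 -23.6 kb, Cd14 -7.7 kb, Cd14 +13.3 kb and Ly96 +8.0 kb. It was below UT in all 58 at the Tlr4 promoter, at 4 CREs of Tlr5 including its promoter, and at Tlr9 -18.8 kb, the Tlr9 promoter and Tlr9 +20.5 kb. After IL-4 it was above UT in all 58 at Tlr4 +24.7 kb, and below in all 58 at Tlr2 -21.4 kb, Tlr2 -1.6 kb, the Tlr5 promoter and Cd14 +18 kb. Counts of at least 52 of 58 above UT after LPS were found for 15 member CREs, and of at most 6 for 12, where 15.1% and 20.5% of all CREs had such counts. After IL-4 these were 1 and 12 member CREs, against 9.67% and 9.83%.

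With CKIs the mean response was near the DMSO value at the Tlr4 promoter and smaller at several distal CREs. At the Tlr4 promoter the CKI libraries had 409 to 816 in UT (median 638) and 177 to 479 at 2 h of LPS (median 296), and the mean response over times was -1.02 ± 0.20 (SD over 58 CKIs), against -0.95 with DMSO. It ran from -1.44 with AZD2014, an mTOR inhibitor, to -0.59 with Apatinib, a VEGFR inhibitor. At Tlr1 +23.3 kb the mean response was 1.73 ± 0.62 against 3.62 with DMSO, from -0.34 with the p38 inhibitor Talmapimod to 3.21 with the MEK inhibitor Refametinib. At Cd14 +13.3 kb, with 17 to 145 in UT (median 57) and 24 to 441 at 30 min of LPS (median 240), it was 1.21 ± 0.53 against 2.19, and at Ly96 +8.0 kb 0.89 ± 0.36 against 1.85. At the Tlr5 promoter the CKI libraries had 121 to 297 in UT (median 214) and 8 to 101 at 2 h of LPS (median 43), with a mean response of -1.90 ± 0.38 against -2.31. At Tlr4 +24.7 kb the IL-4 response was 1.31 ± 0.46 against 1.98, and ran from 0.18 with SGI1776, a PIM inhibitor, to 2.66 with TG100572. The named extremes rest on 1 library at most times, and neither they nor the distances between the CKI means and DMSO carry a test.

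**Figure D3:**
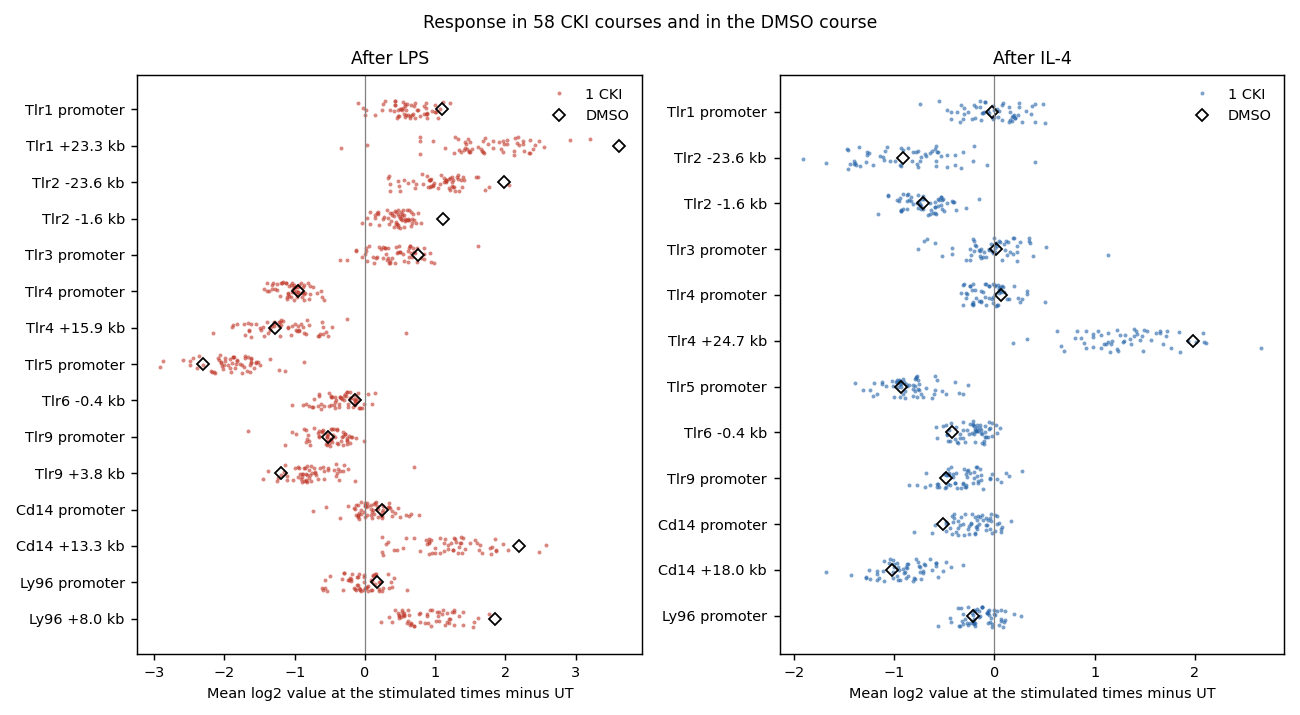
Mean log2 response over the stimulated times of each of 58 CKIs (points, red after LPS and blue after IL-4) and of DMSO (diamonds) at member CREs, as the mean log2 value at the stimulated times minus that of UT. CKI responses at the Tlr4 promoter run from -1.44 to -0.59 around the DMSO value of -0.95, whereas at Cd14 +13.3 kb the DMSO value of 2.19 is above the CKI mean of 1.21.

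Against DMSO, compounds differed at many member CREs, but the count followed the scaling. Over UT and LPS libraries 925 of 2900 pairs of CRE and CKI were called (adjusted p under 0.05, more than 0.5 log2 units apart), 394 higher and 531 lower with the CKI, where 36.4% of all pairs were called, 32.3% higher and 4.04% lower. With quantile scaling the count was 170, 15 higher and 155 lower. The share over all pairs was not counted with quantile scaling, after LPS or IL-4. All calls around Cd14 (175), Tlr1 (82), Ly96 (50) and Tlr3 (26) were lower with the CKI, and all 153 around Tlr5 were higher. Over UT and IL-4 libraries 862 pairs were called, 641 higher and 221 lower (background 39.2%, 36.2% and 3.03%), and 172 with quantile scaling, 24 higher and 148 lower. All 132 calls around Tlr4 were lower and all 134 around Tlr5 higher. The 6 runs of CKI columns in the deposited table hold no DMSO library, so run and compound cannot be told apart in these counts.

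Against the other CKIs of the same run, few compounds stood apart at these genes. Each comparison averaged a compound over its UT and stimulated libraries, so a call is a difference in level and not in response. A call after LPS or IL-4 here means over UT and that stimulus, and both share the UT libraries of the CKIs. After LPS 28 of 2900 pairs were called, 7 higher and 21 lower, where 1.1% of all pairs were called, 0.709% higher and 0.391% lower, and 52 of 58 CKIs had no call. Of the 28, 22 were with PH797804, a p38 inhibitor, and 6 of these 22 held with quantile scaling. Without its 30 min LPS library, 18 pairs were called in all. That compound had calls at 42.2% of all CREs, libraries of 172602 to 2282938 reads and contrasts of 3.37 to 14.7, against 5.40 to 60.1 in the others of its run, and the part of depth in its calls was not tested. After IL-4 24 pairs were called, 12 in each direction (background 1.21%, 0.828% and 0.379%), 10 of them with PH797804, and 48 CKIs had no call. With quantile scaling 2 of the 10 PH797804 calls held.

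Of the other 6 LPS calls, 4 were at Tlr1. Their compounds had calls at 4.56% (BGT226), 4.02% (Omipalisib), 1.2% (Mubritinib), 1.08% (Afatinib) and 5.64% (Pacritinib) of all CREs, so 1 or 2 calls among 50 member CREs do not set these genes apart. Tlr1 +9.5 kb, an intergenic CRE with 164 and 165 in the DMSO UT libraries, had 104 in UT and 90, 103, 71 and 65 over the LPS times with BGT226, a PI3K/mTOR inhibitor, and the medians of the others of its run were 146.5, 149, 200, 199.5 and 201. Every BGT226 value was below the median of the others. The difference was -1.03 (adjusted p 3.65e-07 over all CREs). Omipalisib, of the same class, had 82 in UT and 70, 112, 132 and 73 after LPS, with a difference of -0.65 (adjusted p 0.00568) at this CRE and -0.56 at Tlr1 +13.7 kb (adjusted p 0.0376). Mubritinib, an ERBB2 inhibitor, had a difference of -0.58 at the Tlr1 promoter (adjusted p 0.0198). It had 157 in UT and 61, 187, 384 and 458 over the LPS times, against medians of 179, 277.5, 394.5, 395 and 310 in the others of its run. It was thus below all others at 30 min and 1 h, among them at 2 h and above 6 of 7 at 4 h. With quantile scaling these 4 calls held. The other LPS calls were Afatinib at Tlr9 +22.4 kb (-0.79, adjusted p 0.0448) and Pacritinib at Tlr4 -5.2 kb (0.88, adjusted p 0.0442), which were not called with quantile scaling.

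After IL-4, BGT226 had 4 calls, all lower: -0.55 at Tlr1 +9.5 kb, -0.58 at Tlr5 -3.2 kb, -0.52 at Tlr9 -18.8 kb and -0.67 at Tlr9 +3.8 kb. This compound had calls at 10.6% of all CREs, and with quantile scaling 1 of its 4 calls held. At Tlr5 +4.2 kb Omipalisib had 130 in UT and 213, 306, 120 and 142 over the IL-4 times, where the medians of the others of its run were 110, 85, 119, 77 and 84, all below it. The difference was 0.84 (adjusted p 5.27e-05), and it was 0.63 with X396 (adjusted p 0.0247) and -0.79 with AZD2014 (adjusted p 0.0019). At Tlr4 +24.7 kb SGI1776 had 69 in UT and 45 at 30 min, 130 at 1 h, 22 and 136 in its 2 libraries at 2 h and 114 at 4 h of IL-4, where the medians of the others of its run were 82, 202, 119, 167 and 166. Its difference was -0.90 (adjusted p 0.0045). It was below all others at 30 min and above their median at 1 h, and at 2 h 1 of its libraries was below all others and 1 equalled the lowest of them. Omipalisib had 2 calls in all, 1 higher and 1 lower, and Lenvatinib had 2, both lower. The calls of Omipalisib, Lenvatinib, X396, AZD2014 and SGI1776 held with quantile scaling. Calls were made at 4.69% of all CREs with Omipalisib, 2.1% with Lenvatinib, 0.977% with X396, 0.967% with AZD2014 and 0.198% with SGI1776.

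Grouped by designated target, 4 member CREs were called over UT and LPS libraries at an adjusted p under 0.05 with compounds as replicates. The value of a compound was again its level averaged over UT and the stimulated times, not its response. The 5 PI3K/mTOR inhibitors were lower at Tlr1 +9.5 kb by -0.44 ± 0.09 (adjusted p 0.00145) and at Tlr9 +20.5 kb by -0.27 ± 0.07 (adjusted p 0.0112), where 2.96% of all CREs were called. At Tlr1 +9.5 kb, BGT226, Omipalisib, PF04691502 and AZD2014 were each below all CKIs of their run that were not PI3K/mTOR inhibitors, by 1.05, 0.64, 0.43 and 0.27 from the median of the others, and Apitolisib was above all 9 of its run by 0.29. At this CRE the adjusted p was 0.0916 without BGT226 and the difference -0.63 without Apitolisib. At Tlr9 +20.5 kb the adjusted p was 0.127 without BGT226 and 0.0925 without Omipalisib. Contrasts of the PI3K/mTOR libraries had a median of 9.87 against 17.1 in the other CKI libraries, and their part was not tested.

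The 4 p38 inhibitors differed at Tlr5 -9.9 kb (0.34 ± 0.11, adjusted p 0.0402) and the Ly96 promoter (-0.26 ± 0.08, adjusted p 0.0326), where 10.8% of all CREs were called. Without PH797804 the adjusted p was 0.564 and 0.574, and with quantile scaling 0.571 and 0.196. Without only its 30 min LPS library, the shallowest of those with an estimated depth, 11 member CREs were called over the families, where the backgrounds rose to 22.2% (p38) and 3.22% (PI3K/mTOR). No member CRE was called for the 6 JAK or the 3 MEK inhibitors, where 0% and 0.0642% of all CREs were. After IL-4 2 member CREs were called, both for PI3K/mTOR inhibitors (background 4.94%): Tlr1 +9.5 kb (-0.22 ± 0.07, adjusted p 0.0392) and Tlr9 +3.8 kb (-0.31 ± 0.08, adjusted p 0.0088). Both were lost without BGT226 or without Omipalisib. With quantile scaling neither was called (adjusted p 0.255 and 0.0887).

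**Figure D4:**
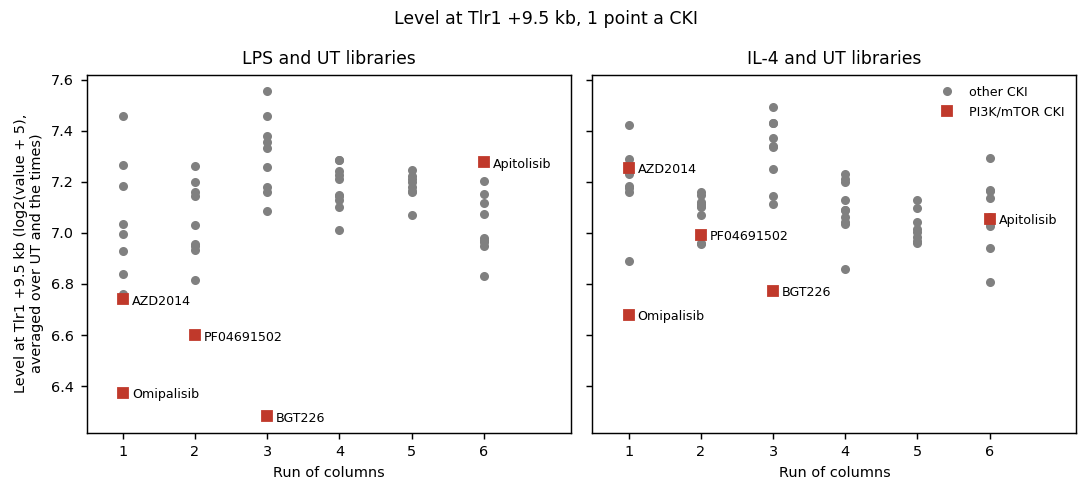
Level at Tlr1 +9.5 kb (log2 of value + 5, averaged over UT and the stimulated times), 1 point a CKI, by run of columns, for LPS and UT libraries and for IL-4 and UT libraries. The PI3K/mTOR inhibitors are red squares: after LPS, 4 of the 5 lie below all grey points of their run, BGT226 lowest at 6.28, and Apitolisib lies above those of its run at 7.28. Grey points are the other CKIs, among them the PI3K inhibitors AZD8186 and TG100115.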

How the data were processed

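H3K27ac ChIP-seq of BMDM was analysed from 1 table of 59190 CREs and 564 libraries. Per the study's methods, the authors trimmed single reads, mapped them to mm10 with ShortStack (the submitters' notes name Bowtie and SAMtools; versions are not given in the sources used here), counted reads at ATAC-seq peaks and scaled libraries on invariant peaks. The deposited values are therefore a score, scaled counts rounded to whole numbers, and no count model was used; rounding limits the precision of low values.

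CREs were assigned to the nearest member start within 25 kb (RefSeq, mm10). Members, pathway lists and markers were chosen with earlier results of these data known, and the rule named every member CRE, in full the promoter and the most changed called CRE of each gene and stimulus. Tests used limma 3.58.1 (R 4.3.3), log2(value + 5), a trended variance and CREs with a mean of at least 10, with Benjamini-Hochberg adjustment over all CREs (within each CKI or family for these). F-tests compared the 4 times with UT, or LPS with IL-4; calls needed an adjusted p under 0.01 with a change past 1 log2 unit in size. CKIs were compared, with time and compound as terms, with DMSO and with the other CKIs of their run, 1 of 6 consecutive stretches of table columns that share no compound, with calls at an adjusted p under 0.05 and more than 0.5 log2 units. These comparisons averaged each compound over its UT and stimulated libraries. Families used 1 such value per CKI with run as a covariate. Nothing in the labels says that replicates came from separate cultures or animals, so p-values measure the spread between these libraries, which may be technical. The DMSO replicate numbers were not shown to pair libraries. Scripts were tested on simulated data. The LPS and IL-4 courses share the UT libraries, as do the LPS and IL-4 comparisons of CKIs. Alternatives covered the pseudocount, scaling, filter, window, replicate block, reference CKIs and left-out libraries.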

Additional observations from a re-analysis of the deposited data

Results flagged for a closer look

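In the direct test of LPS against IL-4 at matched times (limma, 2 libraries per group), 36 of 50 member CREs were called. The called CRE with the largest difference is given for each of the 8 genes that had one. LPS was higher by 4.21 on the log2 scale at Tlr1 +23.3 kb, by 3.06 at Tlr2 -23.6 kb, by 1.69 at the Tlr3 promoter, by 1.64 at Tlr9 -6.7 kb, by 3.40 at Cd14 +13.3 kb and by 3.58 at Ly96 +8.0 kb. LPS was lower at Tlr4 +24.7 kb (-2.84) and at the Tlr5 promoter (-1.70). At Tlr2 -23.6 kb and Cd14 +13.3 kb the stimuli moved the mark in opposite directions from UT, each past the threshold. At the Tlr5 promoter both fell, LPS further.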

How the results depend on the processing

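Of 117 alternative settings of the counts, 99 stayed within 1.5 times of the reported count. With the window at 10 kb, 18 (LPS), 6 (IL-4) and 18 (LPS against IL-4) were called. This window held fewer CREs around Tlr1 (2 of 4), Tlr2 (3 of 8), Tlr4 (2 of 4) and Tlr5 (4 of 6). It also held fewer around Tlr9 (4 of 10), Cd14 (3 of 9) and Ly96 (2 of 4), and all around Tlr3 and Tlr6. The lower counts therefore cannot be read as a smaller share called. At an absolute log2 difference over 0.5, IL-4 called 21. Leaving out each DMSO library gave 31 to 34 calls for LPS, 9 to 13 for IL-4 and 34 to 37 between the stimuli. With the replicate number as a block the counts were 32, 11 and 36; deviations of same-numbered libraries correlated at -0.087 to 0.066, so the numbers were not shown to pair libraries. Quantile scaling cut the CKI calls against DMSO to 170 (LPS) and 172 (IL-4); the cause was not tested. Against all other CKIs instead of the run, 59 and 74 pairs were called. Further settings were chosen after the data were seen: without the PH797804 30 min LPS library, of about 172602 reads, 18 pairs were called against the run and 11 CREs in families, and leaving out single CKIs gave 2 to 20 family calls after LPS (Talmapimod 20, Apitolisib 7, BGT226 2) and 0 to 3 after IL-4 (BGT226 0, Omipalisib 0). Without the run covariate, families had 2 calls after LPS and 0 after IL-4. With quantile scaling they had 1 after IL-4, at neither of the CREs called in the main setting. The share of all CREs called was not counted with single CKIs left out, without the run covariate or with quantile scaling. These family counts therefore cannot be read as particular to these genes. CREs near 0 in UT, such as Tlr1 +23.3 kb, have a fold that depends on the pseudocount.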
